A study of Mus musculus with 4 samples.

Results

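Islets of untreated transgenic male mice (male Tg) were compared with islets of wild-type male mice (male WT), gene by gene, with 1 array for each. Members of the comparison were all non-control probes whose signal the scanner software called well above background on both arrays. These were 26227 of the 55681 non-control probes in the series. They represent 14386 of the 22328 genes with a RefSeq symbol, and such genes are called measured here. The account follows 5 classes of genes that lie largely outside the lists by which islet cells are usually recognised: ion channels, transporters, receptors, adhesion molecules and transcription factors. They were split into 67 families by patterns in the gene symbols, so that every named gene of a family on the array is a member whatever its value.

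All mice in the series were C57BL/6 and 24 weeks old. Besides male WT and male Tg, whose mice the labels call diabetic, the series holds transgenic males sampled 6 weeks after an E2 (estradiol) implant, written male Tg E2, and a group of transgenic females, written female Tg. The labels used here name neither the transgene nor the promoter that drives it, and they do not say how many mice gave the islets of an array. Islets were released with collagenase, separated on a gradient and picked by hand, and total RNA was labelled with Cy3 for a one-colour Agilent mouse array. With 1 array per group, a difference below compares 2 islet samples rather than the conditions they stand for. No test or p-value is possible, and the number of arrays limits the precision.

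A level is the log2 of a probe's processed intensity minus the log2 of the 75th percentile of the same array, so that 0 marks that percentile. A difference is the male Tg level minus the male WT level, and "higher" or "lower" without a number means at least 2-fold (a difference of 1 or -1). SE is the standard error that the scanner software's error model gives the difference. It covers measurement error only and had a median of 0.20 over all measured genes. Where 4 levels of a gene stand in a row, the first is that of male WT, followed by male Tg, by male Tg E2 and lastly by female Tg; this is called the array order. Levels of different genes come from different probes and are not compared with each other.

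Islet endocrine cells are electrically excitable. In beta cells, glucose enters through a transporter and its metabolism closes ATP-sensitive potassium channels. The cell then depolarises, calcium enters through voltage-gated channels, and insulin granules, which a proton pump keeps acidic, release their content. Receptors for gut hormones, neurotransmitters and growth factors tune this release, adhesion molecules hold the cells in contact, and a set of transcription factors maintains the endocrine state.

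Of the 14386 measured genes, 2250 (15.6%) were higher and 1249 (8.68%) lower in male Tg, 24.3% in all. Their median difference was -0.21, and 60.8% of them lay below 0. The split between higher and lower genes moved with the scaling. Relative to the median of all measured genes, 2646 (18.4%) were higher and 752 (5.23%) lower. When arrays were instead scaled by their median probe, 1764 were higher and 2934 lower, with a median of -0.54. A further 743 genes were above background on the male Tg array only and at least 2-fold above a bound set by the dimmest signal called on the other array. In the opposite direction there were 121 such genes. Without the 2-fold bound the counts were alike, with 812 genes above background in male Tg only and 874 in male WT only. The dimmest signal called lay at -4.26 in male WT and at -3.54 in male Tg, so the bound was easier to pass upward. Values from such a bound are given below as "at least N-fold".

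The share of higher genes depended on the wild-type level. Among the 2878 genes with the lowest male WT levels (-4.24 to -1.36), 40.6% were higher and 2.75% lower. Among the 2877 genes with the highest male WT levels (3.30 to 9.96), 4.03% were higher and 11.3% lower. The median male WT level was -1.48 for the higher genes and 1.75 for the lower genes. The higher genes were thus mostly dim on the male WT array, and the lower genes were mostly bright there. This dependence is in part given by the method, because the male WT level is itself part of the difference. Measured genes also had to be above background in male Tg, where the dimmest signal called lay at -3.54. The dimmest male WT genes could therefore not be called lower.

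**Figure D1:**
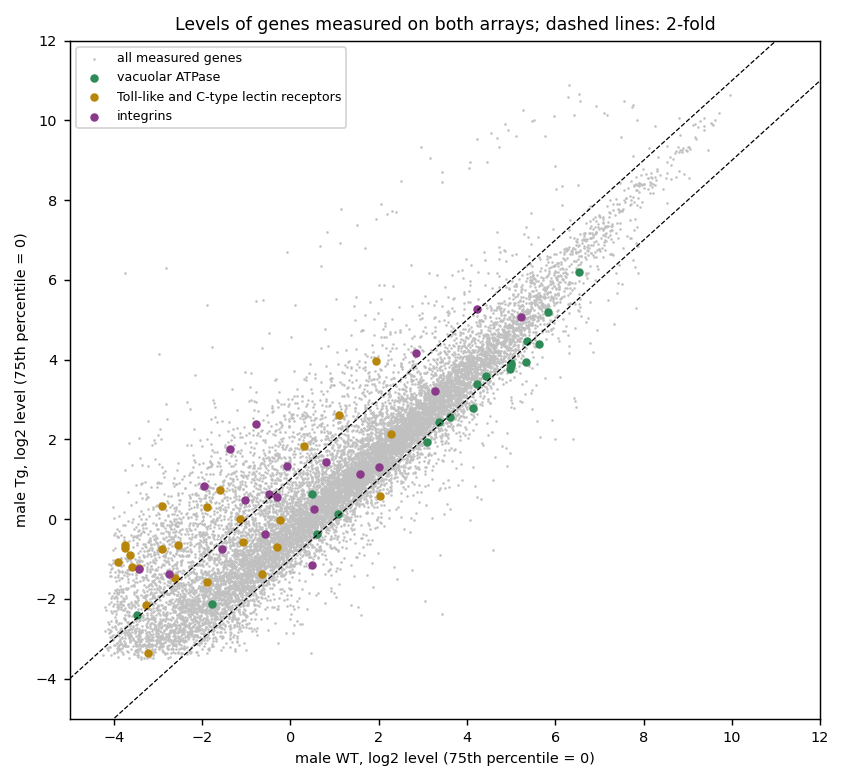
Log2 levels of the 14386 genes measured on both arrays, male WT on the horizontal and male Tg on the vertical axis (0 is each array's 75th percentile), with 1 grey point per gene, 3 families in colour and dashed lines at 2-fold. Genes above the upper line are mostly dim in male WT; most of the bright vacuolar ATPase genes lie near the lower line, whereas integrins and Toll-like and C-type lectin receptors lie mostly on or above the diagonal.

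The 10 genes with the largest differences upward were S100g, 1810009J06Rik, Reg3g, Itih4, Gm5409, Reg3d, 2210010C04Rik, Gm10334, Cuzd1 and Ctrc. Their differences ran from 6.18 for Ctrc, a digestive protease of acinar cells, to 9.92 for S100g, a calcium-binding protein. The 10 largest downward were Gad1, Cib3, T2, Ucn3, Trpm5, Fbxo16, Olfr97, 4931431B13Rik, Cox6a2 and Azin2. They ran from -3.90 for Azin2 to -5.80 for Gad1, the enzyme that makes GABA. A second probe of Azin2 differed by -0.36 and a second probe of Fbxo16 by -0.55, so that the means of their probes were -2.13 and -2.31. Among the latter, T2 (placed with the T-box genes by its symbol only), Trpm5 (a cation channel) and Olfr97 (an olfactory receptor gene) belong to the 5 classes.

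Markers of islet and other cell types moved with the comparison. All 8 islet hormone genes were above background on all 4 arrays, and so were all 19 acinar markers, the male WT array included. In array order, the summed linear level of the acinar markers was 1531, 15290, 9225 and 1677. The 10 ductal markers summed to 58.9, 347, 196 and 43.02, with 8, 10, 9 and 7 of them above background. The 15 stellate cell and matrix markers summed to 66.6, 299, 249.3 and 162, with 14 above background in male WT and all of them on the other arrays. The 12 lymphocyte markers summed to 17.6, 106, 28.3 and 76.4, all above background except for 1 in male Tg E2. The sums of the 13 macrophage markers (60.7 and 77.8) and the 12 endothelial markers (73.8 and 92.3) differed less between male WT and male Tg. Yet 7 of the 12 measured macrophage markers were higher and none lower, with a median difference of 1.08. Of the 12 endothelial markers 3 were higher and none lower, with a median of 0.50. The erythrocyte list summed to 343 in male WT and 1576 in male Tg, with 6 of its 7 markers above background on each array, all 6 higher. Of the 6 platelet markers, all above background, 4 were higher, and the list summed to 39.4 and 90.8. The 6 adipocyte markers summed to 3.56 and 18.3, with 1 above background in male WT and 5 in male Tg. Of the 12 beta cell markers, all above background, 8 were lower and none higher, with a median difference of -1.68, although their sum, which includes the bright insulin genes, was 2654 and 3353. In RNA of whole islets, a change in the number of cells of a type and a change in RNA per cell cannot be told apart. The part of these cell types in the differences below was not tested.

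The 5 classes together held 4196 genes on the array, of which 1847 were measured, 441 (23.9%) higher and 201 (10.9%) lower. Counts of the classes and families below are to be set against the shares of all measured genes, 15.6% higher and 8.68% lower. Among the 2878 genes dimmest in male WT those shares were 40.6% and 2.75%. Receptors had 35.2% higher and 11.9% lower of 420 measured genes, with a median difference of 0.42. Adhesion genes had 33.7% higher and 13.1% lower of 175, with a median of 0.52. Channels had 32.4% higher and 14.7% lower of 170, with a median of 0.23 that turned to -0.10 under median scaling. Transporters had 22.7% higher and 13.6% lower of 317, with a median of -0.16 that turned to 0.08 without the background filter and to 0.051 relative to the median of all genes. Transcription factors had 13.99% higher and 7.84% lower of 765, shares close to those of all genes, with a median of -0.31. These shares mix unlike families. The ZFP zinc finger genes made up 316 of the 765, with 2.85% higher and 6.33% lower, so that both shares were larger among the other factors than in the class. In every class the higher genes had the lower wild-type levels: in receptors the median male WT level was -2.17 for higher and 1.38 for lower genes, and in channels -2.56 and 1.31. Of 642 genes of the classes past 2-fold, 113 were measured by more than 1 probe, and in 7 of these the probes differed in sign. In 22 of them the probes lay more than 1 apart.

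**Figure D2:**
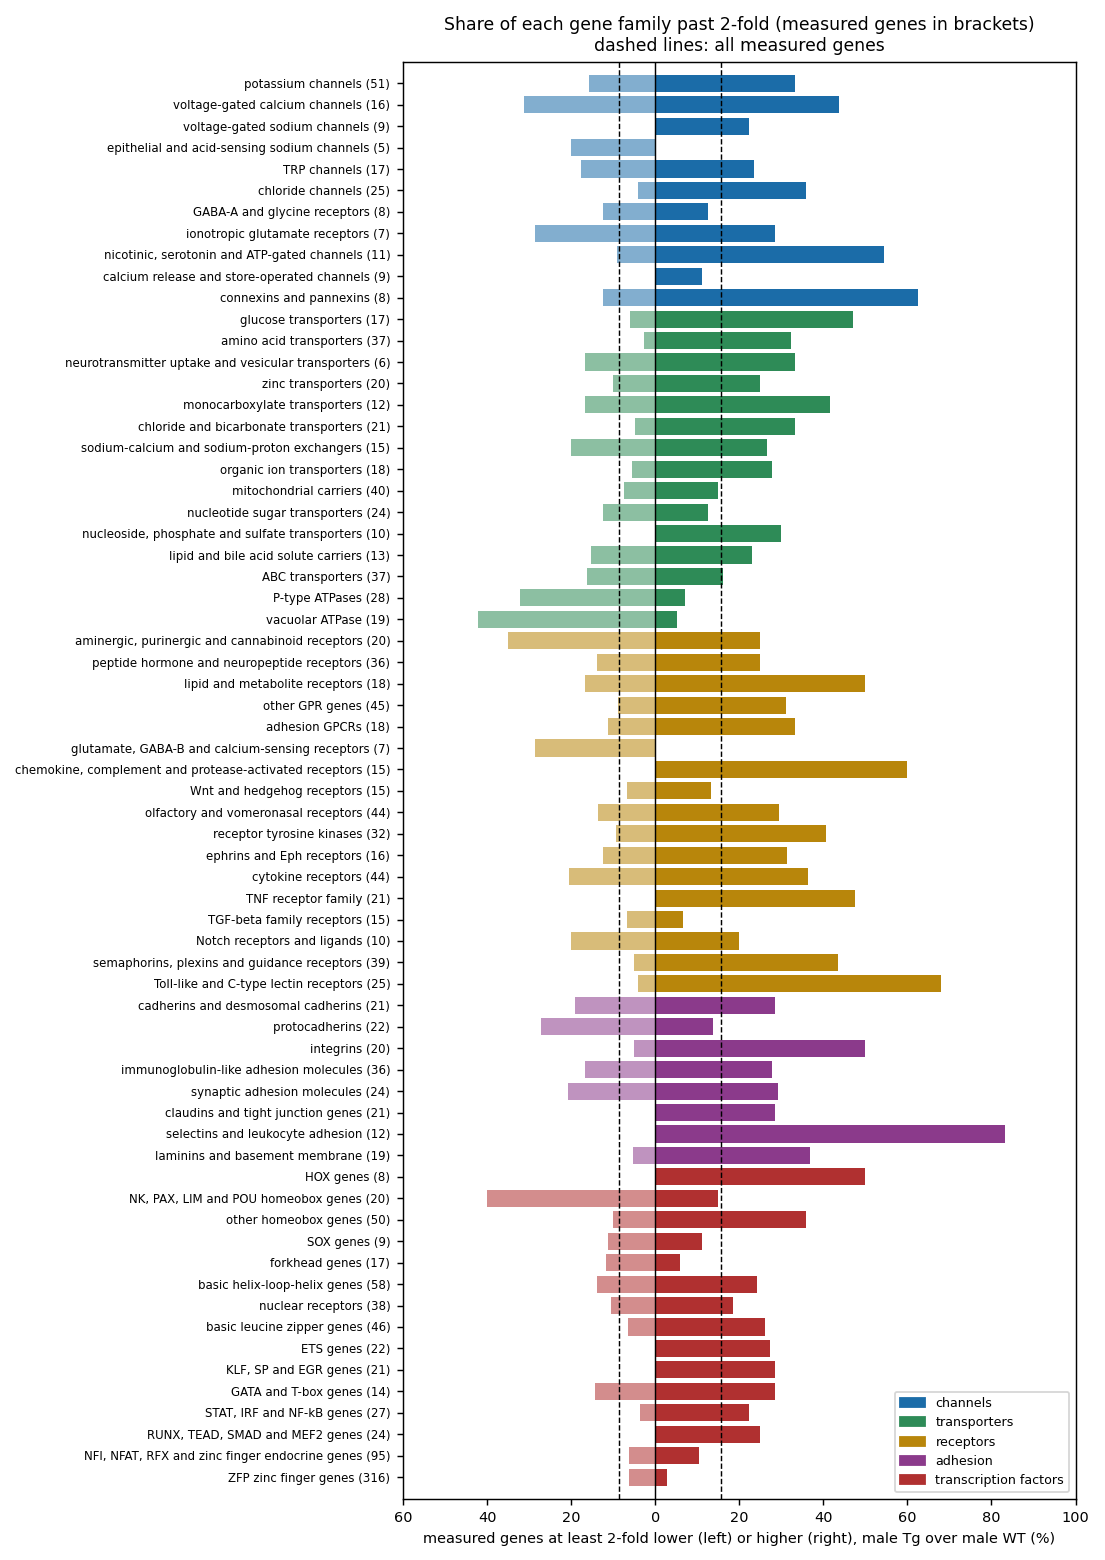
Percentage of the measured genes of each family at least 2-fold lower (left, pale bars) or higher (right, full bars) in male Tg than in male WT, for the 66 families with 5 or more measured genes (number in brackets), coloured by class. Dashed lines mark the shares among all measured genes, 8.68% lower and 15.6% higher; the longest bars to the right belong to selectins and leukocyte adhesion (83.3%) and Toll-like and C-type lectin receptors (68%), and the longest to the left to the vacuolar ATPase (42.1%) and the NK, PAX, LIM and POU homeobox genes (40%).

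Voltage-gated calcium channels, which couple depolarisation to secretion, were split by subunit. Of 26 genes on the array 16 were measured, and 7 (43.75%) were higher and 5 (31.25%) lower, against 15.6% and 8.68% of all genes. The L-type pore subunit Cacna1c had a level of 3.13 in male WT, 1.66 in male Tg, 2.29 in male Tg E2 and 2.46 in female Tg. The other L-type pore subunit of islets, Cacna1d, had levels of 1.25, 0.00, 1.33 and 0.20 in the same order. Male Tg was thus the lowest array for both, by 2.77-fold (difference -1.47, SE 0.20) and 2.38-fold (-1.25, SE 0.21), while male Tg E2 lay near male WT for Cacna1d only. The accessory subunits Cacnb3 (-1.36), Cacnb2 (-1.28) and Cacna2d1 (-1.13) were lower as well, but Cacnb2 was at -0.67 with normexp background correction, and Cacna2d1 at -0.95 under quantile normalization. Cacna1a, the P/Q-type pore subunit, lay just short of 2-fold with -0.99. The higher members were other pore and accessory subunits: Cacna1s of skeletal muscle (3.96), Cacna2d2 (2.22) and the T-type subunit Cacna1g (1.86) were among them. Cacna1s had a level of -3.61 in male WT and 0.35 in male Tg, and Cacna1g one of -3.99 and -2.13. The male WT levels of both lay near the dimmest signal called on that array (-4.26). With normexp background correction the difference of Cacna1s was 2.50 and that of Cacna1g 1.04. The family median of 0.50 turned to -0.86 when only genes above both arrays' median were kept.

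Potassium channels had 92 genes on the array and 51 measured, 17 (33.3%) higher and 8 (15.7%) lower, against 15.6% and 8.68% of all genes. Kcnj11, the pore of the ATP-sensitive potassium channel, had levels of 0.67 in male WT, -0.51 in male Tg, 0.31 in male Tg E2 and 0.63 in female Tg. Its partner subunit Abcc8, the sulfonylurea receptor, had levels of 8.52, 7.92, 8.28 and 8.51. Both were lowest in male Tg, by 2.27-fold (-1.18, SE 0.21) for Kcnj11 and 1.52-fold (-0.60, SE 0.20) for Abcc8. Both calls changed with the processing. A second probe of Kcnj11 differed by -0.44, so that the mean of its probes was -0.81, and Abcc8 was at -1.14 under quantile normalization. The calcium-activated channel Kcnma1 (-1.02) was also lower, just past 2-fold, but was at -0.94 under quantile normalization. The largest downward difference was that of Kcnh4, an EAG-type channel, with levels of 4.32, 0.50, 2.56 and 1.91 and a difference of -3.81 (SE 0.21). Kcnj12, an inward rectifier, followed with -2.89, and Kcnmb2, an accessory subunit of calcium-activated channels, with -1.77. Kcnf1 was above background in male WT only and at least 9.85-fold higher there. Among the higher members, Kcnq1 and its accessory subunit Kcne3, which form an epithelial channel, differed by 2.96 and 3.89. Kcne3 had levels of -3.36, 0.54, -1.16 and -1.91, and Kcna1 (3.97) had levels of -3.88, 0.09, -0.53 and -0.38.

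Trpm5, a calcium-activated cation channel of beta cells and taste cells, had the largest downward difference of all channel genes. Its level was 3.39 in male WT, -0.90 in male Tg, 1.40 in male Tg E2 and 2.52 in female Tg, which is a difference of -4.29 (SE 0.21) or 19.5-fold. Its close relative Trpm4 differed by -0.65, and Trpm2, a cation channel opened by ADP-ribose, by 0.04. Among the 17 measured TRP channels 4 were higher, led by the lysosomal channel Mcoln2 (3.35) and the epithelial calcium channel Trpv6 (3.05), and 3 were lower. The pacemaker channels Hcn2 (-1.22) and Hcn3 (-1.21) were lower, Hcn3 at -0.89 with normexp background correction. Of the glutamate-gated channels, the NMDA receptor subunits Grin1 (-2.64) and Grin2c (-2.55) were lower, while the kainate receptor subunit Grik4 (2.59) and the AMPA receptor subunit Gria2 (1.098, but 0.90 under quantile normalization) were higher. Of 11 nicotinic, serotonin and ATP-gated channels 6 were higher, with P2rx1, an ATP-gated channel, at 0.35 in male WT, 3.50 in male Tg, 1.11 in male Tg E2 and 0.78 in female Tg.

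Connexins, which form gap junctions, had 8 measured genes together with pannexins, 5 (62.5%) higher and 1 (12.5%) lower. Gjd2, the connexin that couples beta cells, had levels of 3.72, 1.76, 2.94 and 2.79 in array order, 3.88-fold lower in male Tg (-1.96, SE 0.20). Gjb2 had levels of -3.42, 1.53, 0.18 and -3.31, and Gjb1 levels of 0.90, 3.66, 2.40 and 0.24. For both, male Tg and male Tg E2 were high while female Tg lay close to male WT, not above background for Gjb2, as it did for the summed acinar and ductal markers. Their differences were 4.94 (30.7-fold) and 2.77 (6.81-fold). Ano1, a calcium-activated chloride channel of epithelia, showed a similar order (0.56, 2.54, 1.74 and 0.55). The ductal chloride channel Cftr, by contrast, differed by -0.09 with an SE of 0.36.

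**Figure D3:**
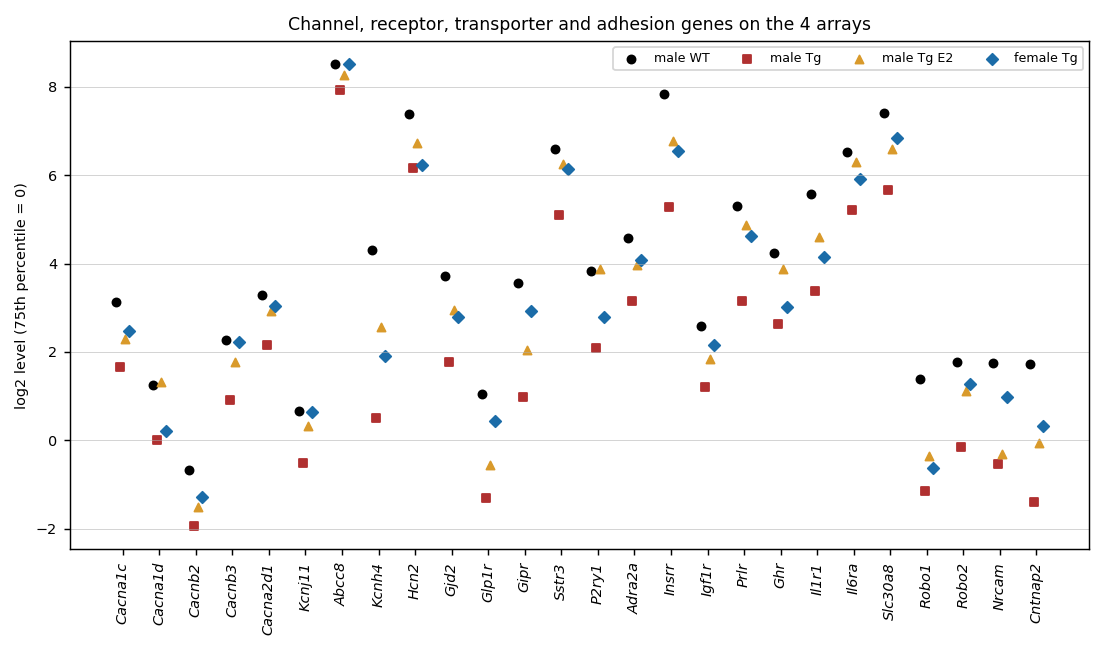
Log2 level (0 is the array's 75th percentile) of 26 genes on the 4 arrays, with 1 symbol per array and no error bars; the genes are channels, transporters, receptors and adhesion molecules with a lower level in male Tg than in male WT, picked for display after their values were seen. The male Tg square is the lowest of the 4 in every column, while the male Tg E2 triangle and the female Tg diamond mostly lie between it and the male WT circle.

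The vacuolar ATPase stood apart among the transporters. It is a proton pump with a soluble V1 sector, which splits ATP, and a membrane V0 sector, which carries protons into granules, endosomes and lysosomes. The 19 measured members of the symbol pattern had a median difference of -0.94, against -0.21 for all genes, and 8 of them (42.1%, background 8.68%) were lower. One member, Atp6v1fnb, is named only for its place next to a subunit gene, and it was the single higher one (1.07, but 0.79 under quantile normalization). Without it 18 genes remained, of which 17 lay below 0 in male Tg. The family median lay between -1.28 and -0.74 under the 9 other settings of scaling, background, filter and probe choice. The value of -0.74 is that relative to the median of all genes. On that scale 3 of the 19 members were lower, against a background of 5.23%, and Atp6v1e1, Atp6v1c1, Atp6v1g1, Atp6v1a and Atp6v0a1 fell short of 2-fold.

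In the V1 sector, Atp6v1d had levels of 5.34 in male WT, 3.95 in male Tg, 4.53 in male Tg E2 and 4.63 in female Tg (-1.40, SE 0.20). Atp6v1e1 (-1.19), Atp6v1c1 (-1.16), Atp6v1g1 (-1.07) and the catalytic subunit Atp6v1a (-1.05) were lower too. In the V0 sector, the proton-binding ring subunit Atp6v0c had levels of 5.64, 4.39, 4.94 and 5.25 (-1.25, SE 0.20). The subunit Atp6v0a1 differed by -1.13, and Atp6v0a2 was the only one of the 18 genes above 0, with 0.14. The accessory protein Atp6ap2, which is also the prorenin receptor, had levels of 4.13, 2.79, 3.46 and 3.38 (-1.35, SE 0.20). Male Tg was the lowest of the 4 arrays for 15 of the 18 genes, and male WT was the highest for 17. All 18 lay below male WT in male Tg E2 and in female Tg as well. Those comparisons share the male WT array with this one and are therefore no separate evidence.

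Genes of this pump and of lysosomes are known to carry an E-box, bound by TFEB and its relatives, near their start sites. Promoters from 250 bases before to 50 after the start site were taken from RefSeq (GRCm38.p6) and searched for TCACGTGA, which reads the same on both strands and contains the shorter CACGTG. Promoters of 13 of the 18 vacuolar ATPase genes were in the table, and 3 of them (23.1%) held the motif. It was in 2% of 11297 measured genes with a promoter, in 1.90% of the 998 lower and in 0.833% of the 1680 higher ones. The 3 sites are shown because they lie in the family with the largest share of lower genes among families with 5 or more measured genes. Capitals mark the motif.
Atp6v1a: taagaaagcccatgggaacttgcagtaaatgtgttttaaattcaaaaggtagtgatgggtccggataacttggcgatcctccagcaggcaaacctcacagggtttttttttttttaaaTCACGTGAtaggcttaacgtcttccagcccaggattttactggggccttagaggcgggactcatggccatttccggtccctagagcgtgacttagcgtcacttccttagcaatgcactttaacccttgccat
Atp6v0d1: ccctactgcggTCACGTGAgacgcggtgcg
Atp6v0e: tagcgcgccgaTCACGTGAgcctctgttga
The Atp6v1a stretch is chr16:44139260-44139509 on the minus strand, and its motif begins 132 bases before the start site. The Atp6v0d1 stretch is chr8:105566050-105566079 on the minus strand, with the motif across the start site. The Atp6v0e stretch is chr17:26676387-26676416 on the plus strand, with the motif beginning at base 3 of the transcript. The differences of the 3 genes were -1.05 for Atp6v1a, -0.81 for Atp6v0d1 and -0.61 for Atp6v0e. Of the factors that bind this motif, Tfeb differed by 0.25, Tfe3 by -0.12 and Mitf by -1.12, with a second Mitf probe at -0.57. A match of letters is a description of the sequence and not a measured binding site.

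P-type ATPases, a separate group of pumps for calcium, sodium, potassium and other ions, had 28 measured genes, 2 higher and 9 (32.1%) lower, or 7 lower relative to the median of all genes. The pumps that fill the endoplasmic reticulum with calcium were among the lower ones. Atp2a2 had levels of 4.02 in male WT, 2.04 in male Tg, 2.93 in male Tg E2 and 3.45 in female Tg, a difference of -1.97 (SE 0.20, 3.93-fold). Atp2a3, the isoform of beta cells among others, had levels of 4.46, 3.02, 3.67 and 3.70 (-1.45, SE 0.20). The Golgi calcium pump Atp2c1 differed by -1.31 and its relative Atp2c2, above background in male Tg only, was at least 12.4-fold higher there. The sodium pump subunit Atp1b1 (0.47) stayed within 2-fold, and Atp1b2 was lower (-1.21). Among calcium release channels, Itpr1, the inositol trisphosphate receptor, differed by 0.62. Ryr2 was above background on neither array.

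**Figure D4:**
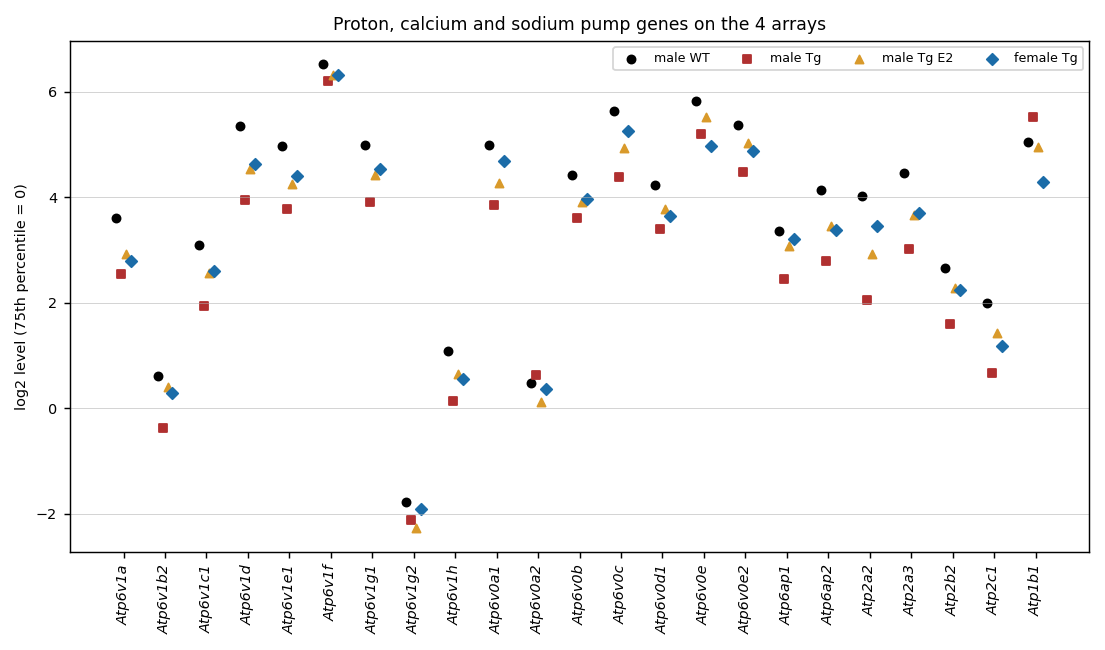
Log2 level (0 is the array's 75th percentile) of 23 proton, calcium and sodium pump genes on the 4 arrays, with 1 symbol per array and no error bars. For 15 of the 18 vacuolar ATPase genes (left) male Tg is the lowest array, and for the calcium pumps Atp2a2, Atp2a3, Atp2b2 and Atp2c1 it is so as well, whereas the sodium pump gene Atp1b1 differs by less than 2-fold between male Tg and male WT.

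Among glucose transporters 17 of 19 genes were measured, 8 (47.1%) were higher and 1 (5.88%) lower. The lower one was Slc2a2, which carries glucose into rodent beta cells, with levels of 5.47, 3.23, 3.42 and 3.88 in array order (-2.24, SE 0.20). Slc2a1 differed by -0.28. The sodium-coupled sugar transporter Slc5a10 had levels of -0.65, 4.30, 3.15 and -1.28, 31.0-fold higher in male Tg, with female Tg below male WT. Slc5a1, the intestinal glucose cotransporter, had levels of -0.52, 1.57, 0.22 and -2.26 (2.09, SE 0.21). The insulin-regulated transporter Slc2a4 differed by 2.20.

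Of 20 measured zinc transporters 5 were higher and 2 lower. Slc30a8, which loads insulin granules with zinc, had levels of 7.41, 5.67, 6.59 and 6.84 (-1.74, SE 0.20). The other lower member was Slc39a3 (-1.44). Slc30a10 (4.34), Slc39a5 (3.92) and Slc39a4 (3.11) were higher, and for all 3 the female Tg level lay nearer to male WT than to male Tg, for Slc30a10 not above background. Of 37 measured amino acid transporters 12 were higher and 1 lower. The glutamine transporters Slc38a3 (4.58), Slc38a1 (4.03) and Slc38a5 (3.76) led. Slc38a5, also used as an alpha cell marker, had levels of 2.12, 5.88, 4.74 and 4.37, so that all 3 transgenic arrays were above male WT. Slc38a4 was the lower member, at 3.53, 1.95, 3.24 and 2.55.

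Of the other solute carriers, the chloride and bicarbonate exchangers Slc26a6 (2.65) and Slc26a3 (2.28) were higher, and the potassium-chloride cotransporter Slc12a7 was lower (-2.19). Slc9a3, a sodium-proton exchanger of epithelial brush borders, was higher (3.17), whereas Slc9a7, an exchanger of intracellular membranes, was lower (-1.86). Mitochondrial carriers had 40 measured genes, 6 (15%) higher and 3 (7.50%) lower, shares close to those of all genes. Of 37 ABC transporters 6 were higher and 6 lower. Abcc3 (2.75) and Abcg2 (2.41), which export conjugates and drugs, were higher. Abcg1 (-1.35) and Abca1 (-1.01), which export cholesterol, were lower, and Abca1 had levels of 2.70, 1.69, 3.11 and 1.56, with male Tg E2 the highest array. Under quantile normalization Abca1 was at -0.83.

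Receptors of peptide hormones had 36 measured genes, 9 (25%) higher and 5 (13.9%) lower. Gipr, the receptor of the incretin GIP, had levels of 3.57 in male WT, 0.98 in male Tg, 2.03 in male Tg E2 and 2.92 in female Tg, 6.03-fold lower in male Tg (-2.59, SE 0.20). Glp1r, the receptor of the incretin GLP-1, had levels of 1.04, -1.31, -0.55 and 0.45 (-2.35, SE 0.21). In both genes the order was male WT, female Tg, male Tg E2 and male Tg. Gcgr, the glucagon receptor, differed by -0.63 only, and its lowest array was female Tg (2.50 against 4.30 in male WT). The somatostatin receptors Sstr3 (-1.48) and Sstr4 (-2.16) and the galanin receptor Galr3 (-2.14) were lower.

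Among receptors of amines and purines, 20 of 49 genes were measured, 7 (35%) lower and 5 (25%) higher. Adra2a, through which noradrenaline inhibits insulin release, had levels of 4.58, 3.15, 3.96 and 4.09 (-1.43, SE 0.20). P2ry1, an ADP receptor, had levels of 3.83, 2.09, 3.88 and 2.79 (-1.75, SE 0.20), and here male Tg E2 lay beside male WT. The muscarinic receptor Chrm3 (-1.40, but -0.67 with normexp background correction) and the adenosine receptor Adora1 (-1.42) were lower. Metabotropic glutamate and related receptors had no higher gene among 7 measured, and 2 were lower. They were Grm2, with levels of 4.37, 1.86, 3.02 and 2.85 (-2.51, SE 0.20), and the taste receptor subunit Tas1r3 (-2.46). The orphan receptors Gpr158 (-2.84) and Gpr162 (-2.55) were lower too. Gpr119 and Casr, the receptors for fatty acid amides and for calcium, were within 2-fold at -0.63 and -0.85, but Casr was at -1.19 under median scaling.

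The largest upward difference of all receptors was that of Cckar, the cholecystokinin receptor of acinar cells. It had levels of -2.82, 2.89, 2.16 and -1.80 in array order, a difference of 5.72 (SE 0.24, 52.6-fold). Ptger3, a prostaglandin E2 receptor, had levels of -3.74, 1.24, 1.17 and -3.98 (4.98, SE 0.34), the last of them not above background. Both were high on the 2 male transgenic arrays and dim on the others, as the summed acinar markers were. Npy1r, a neuropeptide Y receptor, was above background in male Tg and not in male WT and was at least 12.8-fold higher.

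Chemokine, complement and protease-activated receptors had 15 measured genes, 9 (60%) higher and none lower, with a median of 1.98. Ccr7, which guides lymphocytes to lymph nodes, had levels of -0.83 in male WT, 2.75 in male Tg, 0.89 in male Tg E2 and 2.93 in female Tg (3.58, SE 0.21). The B cell receptor of chemokines Cxcr5 had levels of -3.26, 0.55, -1.59 and 0.59 (3.80, SE 0.26). Ccr6 (3.61) and Cxcr3 (3.09) showed the same order. On these genes male Tg and female Tg lay close together, as they did on the summed lymphocyte markers (106 and 76.4, against 17.6 in male WT). Members of the TNF receptor family were also higher in 10 of 21 (47.6%), with no lower gene. Tnfrsf13c (3.98) and Tnfrsf13b (3.46), the receptors of B cell survival factors, led. Toll-like and C-type lectin receptors were higher in 17 of 25 (68%) and lower in 1, with a median of 1.53. The lower one was Tlr2, with levels of 2.03, 0.59, 1.23 and 1.60 (-1.44, SE 0.06).

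Cytokine and growth factor receptors had members on both sides. The prolactin receptor Prlr (levels 5.31, 3.14, 4.87 and 4.63) and the growth hormone receptor Ghr (4.23, 2.63, 3.88 and 3.01) were lower by 2.17 and 1.60 on the log2 scale. The interleukin-1 receptor Il1r1 had levels of 5.57, 3.38, 4.60 and 4.14 (-2.19, SE 0.20), and the interleukin-6 receptor Il6ra levels of 6.53, 5.22, 6.29 and 5.92 (-1.31, SE 0.20). Of the 44 measured cytokine receptors 9 (20.5%) were lower and 16 (36.4%) higher. The higher ones included the lymphocyte and myeloid subunits Il2rb (3.25) and Csf2rb (3.17, with a second probe at 0.98). Among receptor tyrosine kinases, Insrr, a relative of the insulin receptor, had levels of 7.83, 5.29, 6.77 and 6.55 (-2.54, SE 0.20). Igf1r (-1.38) and Ret (-1.17) were the other lower members of 32 measured, Ret at -0.97 relative to the median of all genes, and the insulin receptor Insr itself differed by -0.26, with another of its probes at 0.25. The 13 higher members included the collagen receptor Ddr2 (2.90) and the epithelial receptors Mst1r (2.69) and Erbb2 (2.52). Tgfbr1 and Tgfbr2, the partner chains of the TGF-beta receptor, went apart, with -1.14 (-0.94 relative to the median of all genes) and 1.86.

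Semaphorins, plexins and other axon guidance genes had 39 measured members, 17 (43.6%) higher and 2 (5.13%) lower. The 2 lower genes were the Slit receptors Robo1, with levels of 1.38, -1.15, -0.36 and -0.63 (-2.52, SE 0.21), and Robo2, with levels of 1.78, -0.14, 1.11 and 1.27 (-1.92, SE 0.21). Their ligand gene Slit2 was above background in male Tg only and at least 3.93-fold higher. Olfactory and vomeronasal receptor genes made up 1346 of the 2034 receptor genes on the array. Only 44 of them were measured, 13 higher and 6 lower.

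Among adhesion genes, selectins and leukocyte adhesion genes had 12 measured members, of which 10 (83.3%) were higher and none lower, with a median of 1.81. Cd2, an adhesion molecule of T cells that is also in the lymphocyte marker list, had levels of -1.80 in male WT, 1.89 in male Tg, -0.09 in male Tg E2 and 2.17 in female Tg (3.69, SE 0.21). Vcam1, the ligand of leukocyte integrins, had levels of -1.60, 1.54, 1.21 and 1.26 (3.14, SE 0.21), high on all 3 transgenic arrays. Icam1 was above background in male Tg only and at least 2.03-fold higher. Of 20 measured integrins 10 (50%) were higher and 1 (5%) lower. The leukocyte chains Itgb7 (3.12), Itga4 (2.79) and Itgal (2.18) and the epithelial chain Itgb4 (3.16) were among the higher, and Itgav was the lower one (-1.64). A second probe of Itgal differed by -0.96, so that the mean of its probes was 0.61. Itgam, a macrophage marker, differed by -0.15, but its other probe by -2.11, which gives a mean of -1.13.

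Families of neuronal adhesion molecules had members on both sides, with 7 higher and 5 lower of 24 synaptic adhesion genes and 10 higher and 6 lower of 36 immunoglobulin-like ones. Among the lower, Cntnap2, a contactin-associated protein, had levels of 1.73, -1.41, -0.06 and 0.32 in array order (-3.14, SE 0.22, 8.79-fold). Nrcam had levels of 1.75, -0.53, -0.31 and 0.99 (-2.29, SE 0.21). Flrt1 (-2.18), Lrfn4 (-2.16), Cntn1 (-1.89) and the cadherins Cdhr1 (-2.28), Cdh8 (-2.28) and Cdh22 (-1.62) were lower. Of 22 measured protocadherins 6 (27.3%) were lower and 3 higher, with a median of -0.71 that was -0.32 with normexp background correction. The clustered protocadherin genes share much of their sequence, so their probes may not tell members apart. The general cell contact genes Cdh1 (-0.54), Cdh2 (-0.30, with a second probe at -1.02), Ncam1 (-0.72) and Epcam (0.30) were within 2-fold. Under median scaling Ncam1 was at -1.06 and Epcam at -0.031.

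Tight junction and basement membrane genes had few lower members. None of 21 measured claudins and tight junction genes was lower and 6 were higher. Cldn5 of endothelium had levels of -2.84, 1.20, 0.36 and -0.93 (4.04, SE 0.23), while the endothelial list as a whole summed to 73.8 in male WT and 92.3 in male Tg. Cldn10, a claudin of secretory epithelia, was above background in male Tg and not in male WT and at least 24.6-fold higher. Of 19 laminin and basement membrane genes 7 were higher and 1 lower. Lamb3 (3.50), a chain of epithelial laminin, led, Col18a1 followed (3.09), and Col4a4 was the lower one (-1.39, but -0.55 with normexp background correction).

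Transcription factors of the NK, PAX, LIM and POU homeobox families were lower in 8 of 20 measured genes (40%, background 8.68%) and higher in 3. Relative to the median of all genes 6 were lower (background 5.23%). The family median of -0.59 turned to 0.45 without the background filter, which lets in genes with no signal above background on either array. Nkx6-1, a beta cell factor, had levels of 6.30 in male WT, 4.17 in male Tg, 5.28 in male Tg E2 and 5.60 in female Tg (-2.13, SE 0.20). Pdx1, which maintains beta cells, had levels of 1.58, 0.08, 0.71 and 0.65 (-1.51, SE 0.21), and the endocrine factor Pax6 levels of 2.54, 1.32, 2.12 and 2.48 (-1.22, SE 0.14). Nkx1-2 differed by -2.60. Mnx1 was above background in male WT only and at least 4.41-fold higher there. Nkx2-2 (-1.001), Isl1 (-0.99) and Mafa (-0.99) lay at the 2-fold line, and Rfx6 (-0.95) just inside it. Pou2af1 (3.32) and Pou2f2 (2.84), factors of B cells, were the first 2 of the higher genes. Pou2af1 was counted in this family by its symbol only and is not itself a homeobox gene.

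Outside the homeobox families, the neuroendocrine factors Insm1 (-1.67) and Neurod1 (-1.61) and the forkhead factor Foxa2 (-1.13, or -0.92 relative to the median of all genes) were lower. Sox5 had levels of 5.58, 2.48, 3.18 and 5.27 (-3.10, SE 0.20), so that female Tg lay close to male WT and both male transgenic arrays were low. T2, which only its symbol placed among the T-box genes, had levels of 3.06, -2.06, -0.44 and 0.33. Its difference (-5.12, SE 0.24) was the largest downward one of the class as grouped here, and without T2 it was that of Nr5a1 (-3.16). The T-box gene Tbx6 differed by -2.85, with a second probe near 0 and a mean of -1.43. The stress factor Atf5 (-1.61) was lower, whereas Atf3 was higher (1.99), with levels of 0.89, 2.87, 1.71 and 0.33. Immediate early genes differed among themselves. Fos (-0.62), Jun (0.05), Egr1 (-0.34) and Nr4a1 (-0.66) stayed within 2-fold, whereas Egr2 was higher (1.955) and Npas4 lower (-1.83). Xbp1, a factor of secretory cells, differed by 0.05.

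The nuclear receptors Nr5a1 and Nr5a2, close relatives in sequence, had opposite signs. Nr5a1, a steroidogenic factor, had levels of 3.54 in male WT, 0.38 in male Tg, 2.48 in male Tg E2 and 1.98 in female Tg (-3.16, SE 0.21). Nr5a2, a factor of acinar cells and liver, had levels of -2.30, 1.11, 0.54 and -1.77 (3.41, SE 0.22). Ptf1a, the acinar master regulator, had levels of -3.13, 1.85, 1.34 and -3.04 (4.99, SE 0.25). Tead2 (-0.90, 3.66, 2.90 and -0.80), Spdef (-2.17, 2.26, 1.72 and -1.64), Onecut1 (-3.03, 0.81, 0.13 and -1.91) and Gata4 (-2.66, 0.90, -0.76 and -2.61) had the same order of arrays. In these 6 genes female Tg lay nearer to male WT than to male Tg, as the summed acinar markers did. The duct factor Sox9 was above background in male Tg and not in male WT and at least 5.24-fold higher.

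A separate group of higher factors was as high in female Tg as in male Tg. Ikzf1, a lymphocyte factor, had levels of -3.99, 0.03, -2.15 and 0.02 in array order (4.02, SE 0.35), and Irf4 levels of -3.46, -0.41, -2.79 and -0.37 (3.06, SE 0.30). Spib (3.12), Stat4 (3.33) and Irf8 (2.62), all factors of blood cells, were higher too. Yap1 (2.20) and Smad3 (1.74) were higher, and Stat5b was lower (-1.07, but -0.89 under quantile normalization). Of 39 HOX genes on the array 8 were measured, 4 (50%) higher and none lower. These 4 had male WT levels between -3.91 and -2.51. Among all genes with male WT levels of -4.24 to -1.36, 40.6% were higher and 2.75% lower. Hoxa7 and Hoxb5 fell short of 2-fold with normexp background correction (0.855 and 0.84) and under quantile normalization (0.997 and 0.95). The ZFP zinc finger genes, the most numerous family of factors, kept within narrow bounds. Of 316 measured genes 9 (2.85%) were higher and 20 (6.33%) lower, both shares below those of all genes, yet 83.9% of them lay below 0, against 60.8% of all genes.

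**Figure D5:**
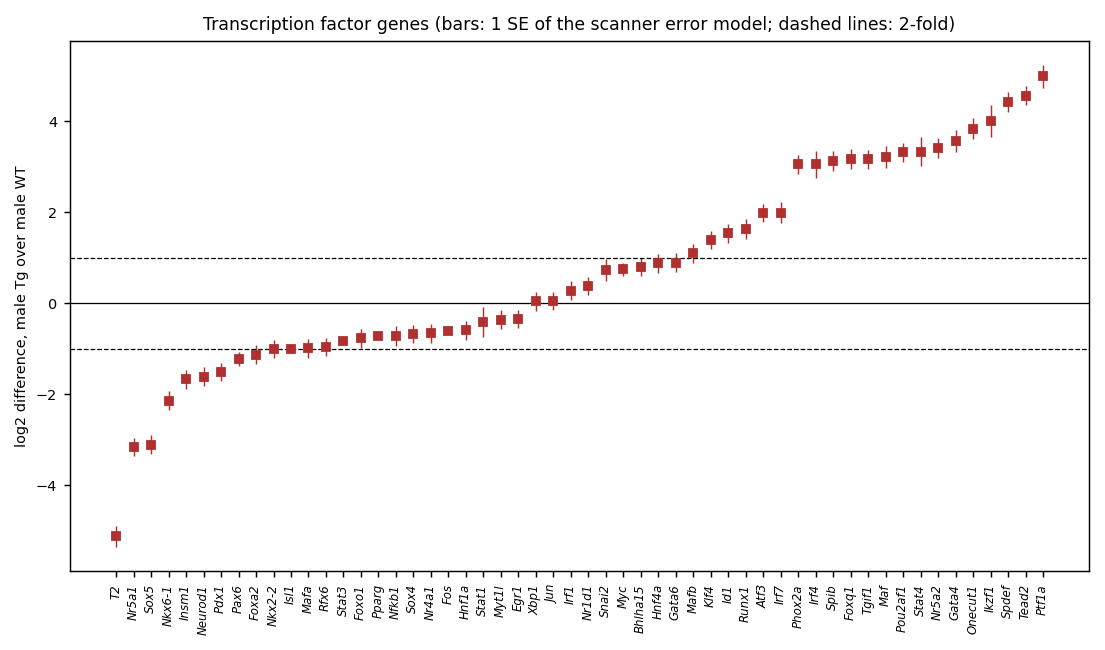
Log2 difference of male Tg over male WT for 54 transcription factor genes, ordered by value, with bars of 1 SE of the scanner error model and dashed lines at 2-fold. Those shown are the factors of a fixed list that were measured and the family leaders that differed by 3 or more. T2, which is included by its symbol only, Nr5a1 and Sox5 lie lowest and Ptf1a, Tead2 and Spdef highest, while Jun and Xbp1 lie at 0.

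On the other 2 transgenic arrays the median difference of the higher and of the lower genes from male WT was smaller than in male Tg. All 3 comparisons share the male WT array. Over the 2064 higher genes measured on all 4 arrays the median difference from male WT was 1.89 in male Tg, 1.06 in male Tg E2 and 0.86 in female Tg. Over the 1247 lower genes it was -1.28, -0.65 and -0.65. Single genes departed from the medians: 193 of the higher and 25 of the lower ones differed more from male WT in male Tg E2 than in male Tg, and 241 and 49 did so in female Tg. The genes were chosen on the male Tg values, so a smaller median on the other arrays is in part given by the choice. The higher transporters differed most between the arrays, with medians of 1.88 in male Tg, 0.70 in male Tg E2 and 0.12 in female Tg over 58 genes. For higher receptors they were 1.80, 1.104 and 1.09 over 132 genes. Over all measured genes, 8.82% were higher and 2.64% lower in male Tg E2 than in male WT, and 7.65% and 3.47% in female Tg.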

How the data were processed

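Total islet RNA of 4 groups of mice was measured on 4 one-colour Agilent arrays, 1 per group. The deposited scanner files hold linear, background-corrected Cy3 intensity per spot, and the file headers name Feature Extraction 10.7.1.1 where the submitters' processing notes give 9.5.1.1. The authors' deposited value table holds intensity too, with the same set of sorted values in each of its 4 columns, and served as an alternative. Probe positions in the files refer to mm9.

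Spots with an outlier flag were left out, the log2 values of a probe's spots were averaged, and each array was centred on the 75th percentile of its non-control probes. Taken over single non-control spots instead, the 75th percentile of the 4 arrays was an intensity of 230 to 410. A level of 0 lay lower than that, near an intensity of 202 in male Tg. On the 4 arrays 49.9% to 54.8% of spots were well above background. Probes were named through RefSeq symbols (GRCm38.p6): 27235 by accession and 4146 by symbol or synonym, while 24300 kept no such name. A gene is represented by its brightest probe over the 4 arrays. No group has a second array, so values are compared without a test. Probes spotted 10 times gave the difference a spot SD of 0.102 (median of 274 probes).

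A gene above background on 1 array only is given as a bound: its level there against the higher of its own level and the lowest signal called well above background on the other array. Named genes are the 10 largest differences in each direction, up to 4 genes per family and direction past 2-fold, up to 3 by their bound, and a list of genes named whatever their value. Other vacuolar ATPase genes, other members past 2-fold and the factors of the E-box were named after their values were seen. Members, families and lists were chosen with earlier results of these data known. Simulated data were used only to check the 2-fold call and the quantile normalization. The added folds were large against the added noise, so their recovery was fixed beforehand. The other steps were not tested in this way. Python 3.11.15, pandas 2.3.3, R 4.3.3 and limma 3.58.1 (normexp, offset 50) were used. Alternatives were scaling by the median, quantile normalization, normexp background, the deposited value table, 2 other background filters, the mean of a gene's probes, flagged spots kept, differences relative to the median, and thresholds of 1.5-fold and 4-fold. A few genes of the rule are not reported here.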

Additional observations from a re-analysis of the deposited data

How the results depend on the processing

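No paired analysis was possible because each group has 1 array and the labels carry no replicate numbers. Of 475 genes of the naming rule past 2-fold, 0 changed sign under the 9 other settings of scaling, background, filter and probe choice, and 378 were past 2-fold under each setting that gave them a value. Of the rest, 62 fell short of 2-fold with normexp background correction, which shrinks dim genes, 33 relative to the median of all genes and 9 as the mean of their probes, with some under more than 1 of these. Under several settings a gene past 2-fold could not change sign. Median scaling and the difference relative to the median move every gene by the same small amount. The 2 other background filters leave a gene's difference as it is. Of 67 family medians 33 changed sign under at least 1 of the 9 settings. Relative to the median of all genes the class medians were 0.44 for channels, 0.051 for transporters, 0.62 for receptors, 0.72 for adhesion genes and -0.11 for transcription factors. The count of higher genes (2250) was 4369 without the background filter, which lets in dim genes, and 1003 at a 4-fold threshold. The count of lower genes (1249) was 2934 under median scaling, 752 relative to the median of all genes, 3616 at 1.5-fold and 164 at 4-fold. Under median scaling the median difference was -0.54 for all genes, -0.10 for channels, -0.49 for transporters, 0.086 for receptors, 0.18 for adhesion genes and -0.65 for transcription factors. That scaling takes as its reference the median probe of an array, and about as many probes were called above background as not. Without the background filter the medians were 0.084 for all genes, 0.68 for channels, 0.076 for transporters, 0.70 for receptors and -0.10 for transcription factors. The cause of these shifts was not tested. Signal over background limits the dimmest genes: those with the lowest male WT levels had a median SE of 0.26, against 0.20 for the brightest.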
